A study of Mus musculus with 11 samples.

Results

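Prg4, the gene of lubricin, was followed across 11 libraries of ribosome footprints from mouse cortex. It is 1 of 4338 genes in the deposited table of footprint counts, and 4 of its transcripts are listed there. Prg4 was chosen from measured values, because its footprints were far higher in ipsilateral than in sham cortex. Its levels and differences are therefore given as a description, with a standard error and without a test.

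The footprints are the stretches of messenger RNA that ribosomes shield from nuclease, here taken from purified monosomes captured through the large-subunit protein P0. The mice were wild-type C57BL6 animals aged 7-8 weeks. In MCAO animals a filament blocked the right middle cerebral artery for 35 min, and cortex was taken after 3 h of reperfusion from the blocked side (ipsilateral, 4 libraries) and the opposite side (contralateral, 4 libraries). Sham animals (3 libraries) were anaesthetised and had their arteries exposed without a filament. The side of the sham cortex is not stated. The tissue entry of the ipsilateral samples names the contralateral side. Their titles and descriptions say ipsilateral, and the titles were followed. Replicate numbers name days of surgery. Whether ipsilateral and contralateral libraries of 1 day came from the same animals, and how many animals a library holds, is not given. Total RNA libraries were not analysed here. The amount of a transcript and how often it is translated therefore cannot be told apart, nor can fewer cells of a type and less RNA per cell.

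Lubricin is a large secreted glycoprotein, best known as the boundary lubricant of joint fluid and of the surface of articular cartilage. The protein has somatomedin B-like domains near its start, a hemopexin-like domain near its end, and between them a long repeat-rich region whose threonines carry O-linked sugars. It binds CD44 and Toll-like receptors, and CREB, TGF-beta and FoxO factors act on its gene in joint tissue.

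The gene (ENSMUSG00000006014) lies on the minus strand of chromosome 1, from 150449412 to 150466165 in mm10 (GRCm38). The repeat-rich region is encoded mostly by an exon of 2286 nt at chr1:150454052-150456337. The first 240 nt of a segment of that exon, at chr1:150455235-150455474, are shown because the segment separates the listed transcripts and because its repeats bear on how footprints can be placed. The letters are the coding strand, from the GENCODE vM21 transcripts. Capitals mark exact copies of the 24-nt unit on the first line, which encodes part of the repeat-rich region.
Prg4 repeat unit: GAGCCTGAACCCACAACTCCCAAG
Prg4 repeat stretch: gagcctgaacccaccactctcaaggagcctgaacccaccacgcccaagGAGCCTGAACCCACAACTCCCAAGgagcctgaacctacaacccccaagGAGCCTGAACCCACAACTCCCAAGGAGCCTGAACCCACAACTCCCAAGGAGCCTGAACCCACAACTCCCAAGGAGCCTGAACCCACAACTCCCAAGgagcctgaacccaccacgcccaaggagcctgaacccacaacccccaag

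The stretch shown holds 5 exact copies of the unit, flanked by near copies. A near copy follows the first exact copy, and the other exact copies run head to tail. The whole coding sequence holds 17 copies, and all of them lie in the large exon. Within the coding sequence of 3663 nt, 31.6% of the 28-nt words, about the length of a footprint, occur at more than 1 place in Prg4. This share was 50.9% in the large exon. A word of this kind occurred at up to 17 places. Only 2 of the 3636 words occur in a transcript of another annotated gene, on either strand. Repeats within the gene, and hardly any outside it, thus surround a Prg4 footprint.

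Of the 8 annotated Prg4 transcripts, 4 are listed. Prg4-206 (ENSMUST00000161611) and Prg4-208 (ENSMUST00000164600) have the same coding sequence of 3663 nt and the same count of 207 over all libraries, equal in each of the 11. Prg4-203 (ENSMUST00000111902), with 3036 coding nt, had 144 counts, and Prg4-202 (ENSMUST00000111901), with 2895 coding nt, had 143. These 2 shorter forms had equal counts in 10 libraries and differed by 1 count in ipsilateral replicate 6, at 26 and 25. Both lack a segment of 504 nt at chr1:150454971-150455474, here called the repeat segment. Prg4-203 also skips an exon of 123 nt, and Prg4-202 skips 2 exons of 120 nt and 144 nt. Prg4-206 was used as the main transcript, being first by identifier among the 2 with the highest count.

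**Figure D1:**
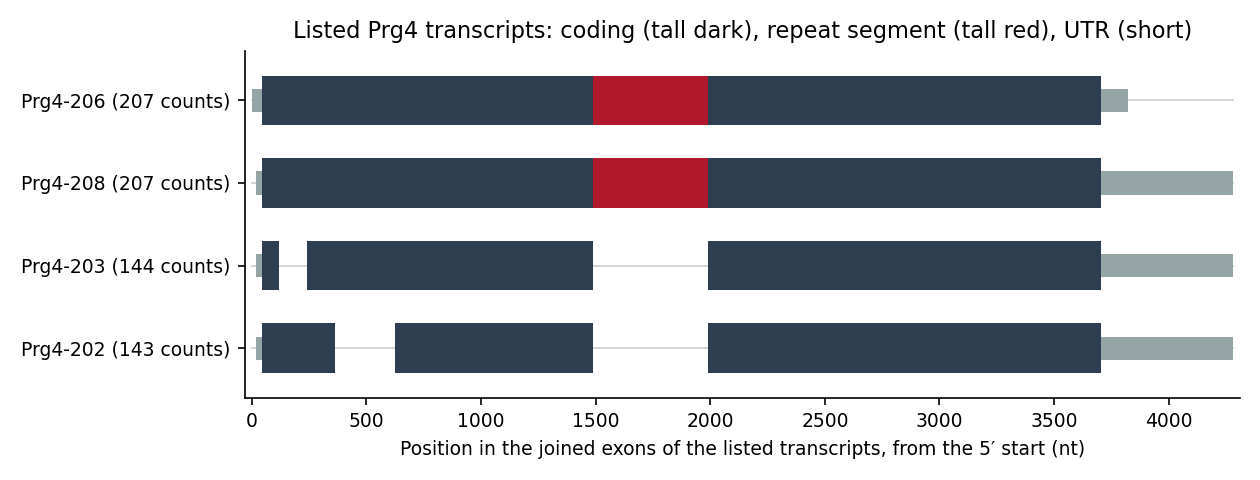
The 4 listed Prg4 transcripts, drawn to scale along their joined exons in nt from the 5′ start, with coding parts tall, the repeat segment in red and untranslated parts short. Prg4-206 and Prg4-208 hold the repeat segment and 207 counts each, whereas Prg4-203 and Prg4-202 lack it and hold 144 and 143 counts.

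The untranslated ends added no counts. Prg4-208 carries 457 nt of 3′ untranslated sequence that Prg4-206 lacks, with a count equal to that of Prg4-206 in every library. Over the whole table, 1732 of 1750 pairs of transcripts of a gene with the same coding exons but different other exons had identical counts in all libraries (99%). Of 12634 pairs with different coding exons, 1749 were identical (13.8%).

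The libraries were shallow. Their totals, with each gene counted once, ran between 35068 and 137341 counts in ipsilateral libraries, between 137372 and 571351 in contralateral libraries and between 64460 and 256657 in sham libraries, a 16.3-fold range. Levels are CPM, counts brought to a common library size, with library totals first adjusted by TMM factors, which assume that most genes do not differ. All 8 cortical excitatory neuron markers were detected in every library, and 3 of 8 striatal markers are listed.

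Prg4 footprints were highest in ipsilateral cortex, intermediate in contralateral cortex and lowest in sham cortex. Ipsilateral replicates 2, 4, 5 and 6 had 23, 8, 6 and 40 counts, or 172, 235, 74.2 and 344 CPM. Contralateral replicates 1, 4, 5 and 6 had 21, 6, 29 and 57 counts, or 141, 45.9, 97.6 and 101 CPM. Sham replicates 1, 2 and 5 had 8, 1 and 8 counts, or 31.4, 15.7 and 42.4 CPM. Every ipsilateral and every contralateral library lay above every sham library, while ipsilateral replicate 5 lay below 3 of the contralateral libraries. The means were 206 ± 113 CPM in ipsilateral cortex (SD, n = 4), 96.5 ± 39.2 CPM in contralateral cortex (SD, n = 4) and 29.8 ± 13.4 CPM in sham cortex (SD, n = 3). In that order of levels, the ipsilateral and contralateral groups overlapped.

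The counts behind these levels were small. The 8 counts of ipsilateral replicate 4 come from the shallowest library, and the single count of sham replicate 2 has an exact Poisson interval of 0.0253 to 5.57 counts at 95%. Such intervals cover counting error only. Pooled counts were 77 in ipsilateral, 113 in contralateral and 17 in sham libraries. Transcripts with a summed count of 100 or less are not analysed here, and at the pooled sham rate in every library Prg4 would have reached 67.4 counts. Prg4 is thus in the table through its counts in MCAO libraries.

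**Figure D2:**
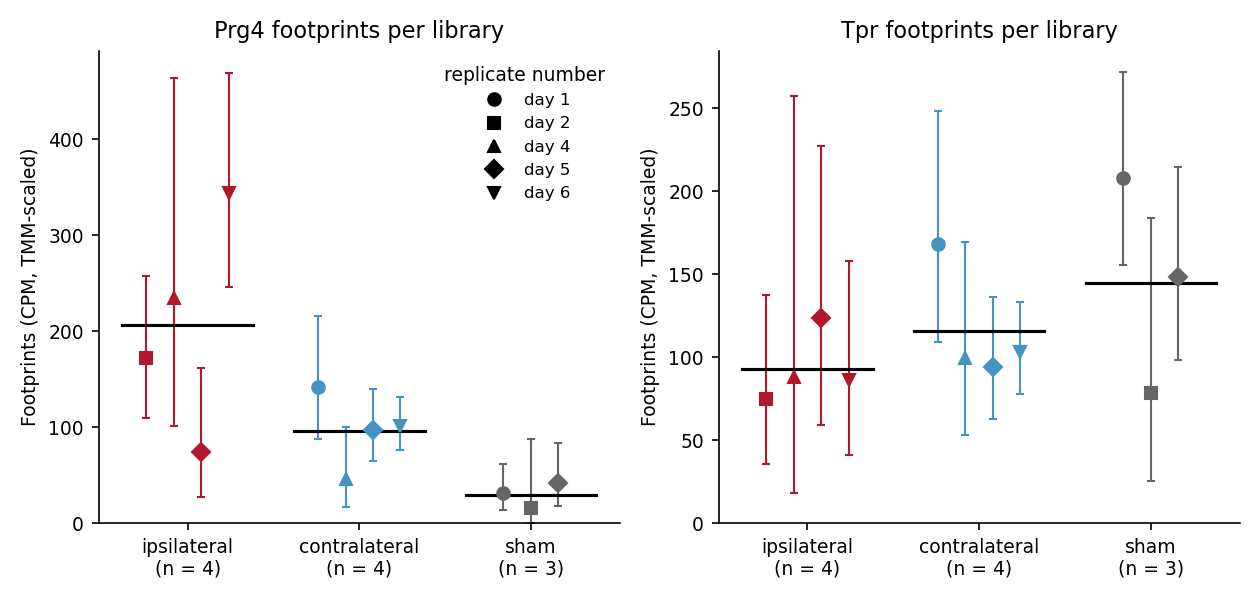
Footprints of Prg4 (left) and Tpr (right) in TMM-scaled CPM for each library, by group, with exact 95% Poisson intervals as bars and group means as black lines. Prg4 means were 206 CPM in ipsilateral, 96.5 CPM in contralateral and 29.8 CPM in sham cortex, whereas Tpr means were 93.1, 116 and 145 CPM in the same groups.

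Per kilobase of coding sequence, Prg4 had 56.3 ± 30.9 CPM in ipsilateral cortex (SD, n = 4), 26.4 ± 10.7 CPM in contralateral cortex (SD, n = 4) and 8.14 ± 3.66 CPM in sham cortex (SD, n = 3). The median gene had 87.7, 86.6 and 88.5 CPM per coding kilobase in these groups. On this scale, 34.6% of 3782 genes with a coding length lay below Prg4 in ipsilateral cortex, 11.4% in contralateral cortex and 0.529% in sham cortex. Its place in sham cortex follows from its choice and from the minimum on the summed count, since genes low in every group are not analysed here. It lay below the median gene in ipsilateral cortex too.

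Against sham cortex, the fitted Prg4 level was 6.16-fold higher in ipsilateral cortex, a log2 difference of 2.62 ± 0.44 (SE). All 12 pairs of an ipsilateral and a sham library had the ipsilateral library higher. In 3.91% of the 3835 tested genes the lowest ipsilateral library exceeded the highest sham library, and Prg4 was chosen on this contrast, so nothing is read from its separation. The difference ranked 15 of 3835 from the highest. At the head stood the stress-induced chaperone genes Hspa1a at 5.28 ± 0.49 and Hspa1b at 5.22 ± 0.48 (log2, SE), near-identical copies between which counts are uncertain, while the next, such as Xylb at 3.85 ± 2.12, had far wider errors than Prg4.

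The contralateral and sham comparison shares its sham libraries with the contrast on which Prg4 was chosen. The fitted level was 2.91-fold higher in contralateral cortex, a log2 difference of 1.54 ± 0.44 (SE). All 12 library pairs had the contralateral library higher, and 3.39% of tested genes were separated in this direction. The low sham counts of Prg4 entered its choice, so nothing is read from this separation either. The difference ranked 9 of 3835, and each of the 8 above it had an SE between 1.32 and 2.08.

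Between hemispheres, which share the ipsilateral libraries with that contrast, the fitted level was 2.11-fold higher in ipsilateral cortex, a log2 difference of 1.08 ± 0.31 (SE). Of 16 library pairs, 13 had the ipsilateral library higher, and the groups overlapped, whereas 2.35% of tested genes were separated in this direction. The difference ranked 40 of 3835. It was 0.59 without ipsilateral replicate 6, the highest library, and 1.34 without ipsilateral replicate 5, the lowest of its group. The difference from sham moved by as much on the log2 scale, to 2.13 and 2.89 without the same libraries.

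**Figure D3:**
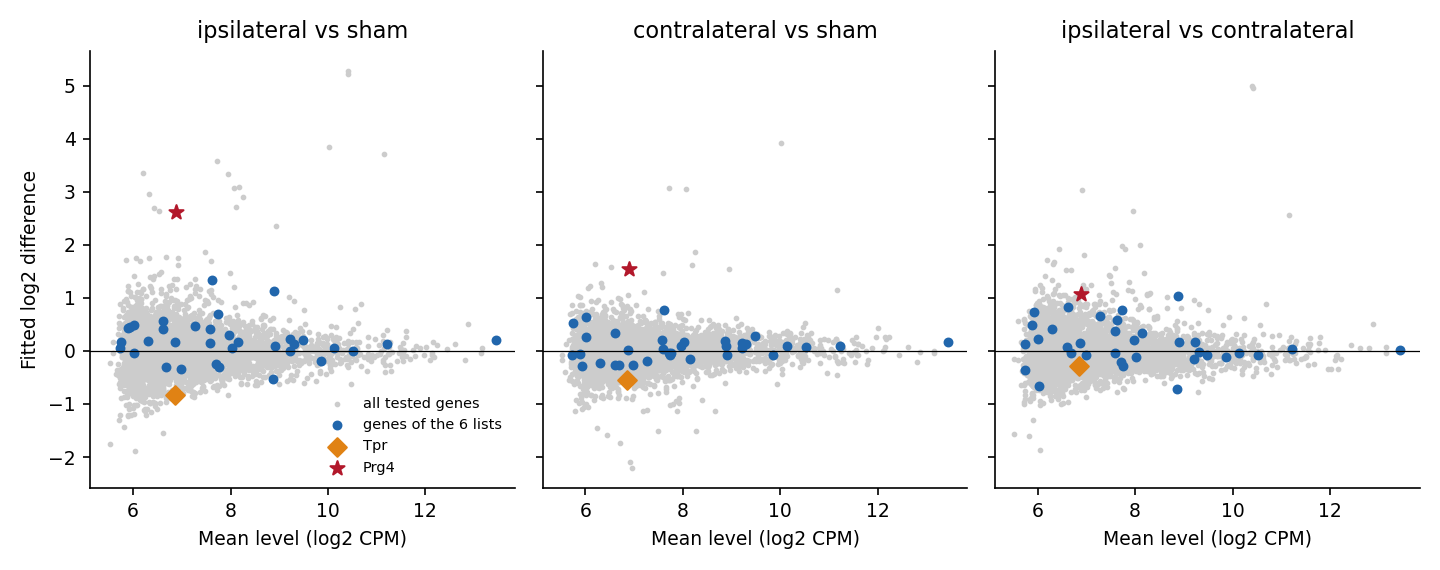
Fitted log2 difference against mean level (log2 CPM) for the 3835 tested genes in each of the 3 comparisons, with Prg4 as a star, Tpr as a diamond and the genes of 6 lists related to lubricin in blue. Prg4 lies at 2.62, 1.54 and 1.08, above each of the 34 list genes in all 3 panels.

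Within a day of surgery, Prg4 was higher in the first-named group in 6 of 7 pairs of libraries. Each pair holds a library of the contrast on which Prg4 was chosen, so neither this number nor the intervals below are a test. The day 5 libraries enter more than 1 pair, and the share of all tested genes with as many higher pairs was not computed. Ipsilateral over sham gave a ratio of 10.9 on day 2 (95% counting interval 1.78 to 451, with 23 counts against 1) and 1.75 on day 5 (0.501 to 5.76, with 6 counts against 8). Contralateral over sham gave 4.5 on day 1 (1.92 to 11.8) and 2.3 on day 5 (1.03 to 5.83). Ipsilateral over contralateral gave 5.11 on day 4 (1.56 to 17.9), 0.761 on day 5 (0.258 to 1.86) and 3.4 on day 6 (2.21 to 5.18). Day 5, the only day with all 3 groups, had 74.2 CPM in ipsilateral, 97.6 CPM in contralateral and 42.4 CPM in sham cortex. Ipsilateral replicate 5 also had the lowest Hspa1a level of its group, at 1695 CPM against 3206, 5280 and 4095 CPM in ipsilateral replicates 2, 4 and 6.

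The counts that Prg4-206 has beyond Prg4-203 come from 627 coding nt, made up of the repeat segment and the skipped exon of 123 nt. They were 26 of 77 counts in ipsilateral libraries (33.8%, exact Clopper-Pearson 95% interval 23.4 to 45.4%), 32 of 113 in contralateral libraries (28.3%, 20.2 to 37.6%) and 5 of 17 in sham libraries (29.4%, 10.3 to 56%). These intervals pool the reads of a group and cover counting error only, not the spread between libraries, and a difference in share between groups was not tested. By library the share ran between 12.5% and 39.1% in ipsilateral cortex, between 24.1% and 42.9% in contralateral cortex and between 0% and 37.5% in sham cortex.

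Over all libraries the share was 63 of 207 counts (30.4%, 24.2 to 37.2%), above the 17.1% that the 627 nt make up of the coding sequence. This is 100 counts per kilobase, against 47.4 counts per kilobase for the rest. In the repeat segment 94.8% of the 28-nt words occur at more than 1 place in the Prg4 coding sequence. How reads with several places were treated is not given in the sources used here, and the part of the repeats in this excess was not tested.

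The ends of the repeat segment are shown because they show why reads cannot mark its absence. Capitals mark the bases inside the segment, on the coding strand. The first line is at chr1:150455460-150455489 and the second at chr1:150454956-150454985, while the third is the join that the shorter transcripts make in place of both.
Prg4-206 into the repeat segment: cccacaactcccaagGAGCCTGAACCCACC
Prg4-206 out of the repeat segment: TCCACCACCCGCAAGgagcctgaacccacc
Prg4-202 and Prg4-203 join: cccacaactcccaaggagcctgaacccacc

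The join of 30 nt has the same letters as the first line, and it occurs at 7 places in Prg4-206 and Prg4-208 and at 5 places in Prg4-202 and Prg4-203. A footprint on it therefore does not tell the short forms from the long ones, and the counts do not show how much of Prg4 translation is of a short form. Counted on Prg4-202, which lacks the repeat segment, the log2 differences of Prg4 were 2.50 between ipsilateral and sham, 1.55 between contralateral and sham, and 0.95 between ipsilateral and contralateral cortex.

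**Figure D4:**
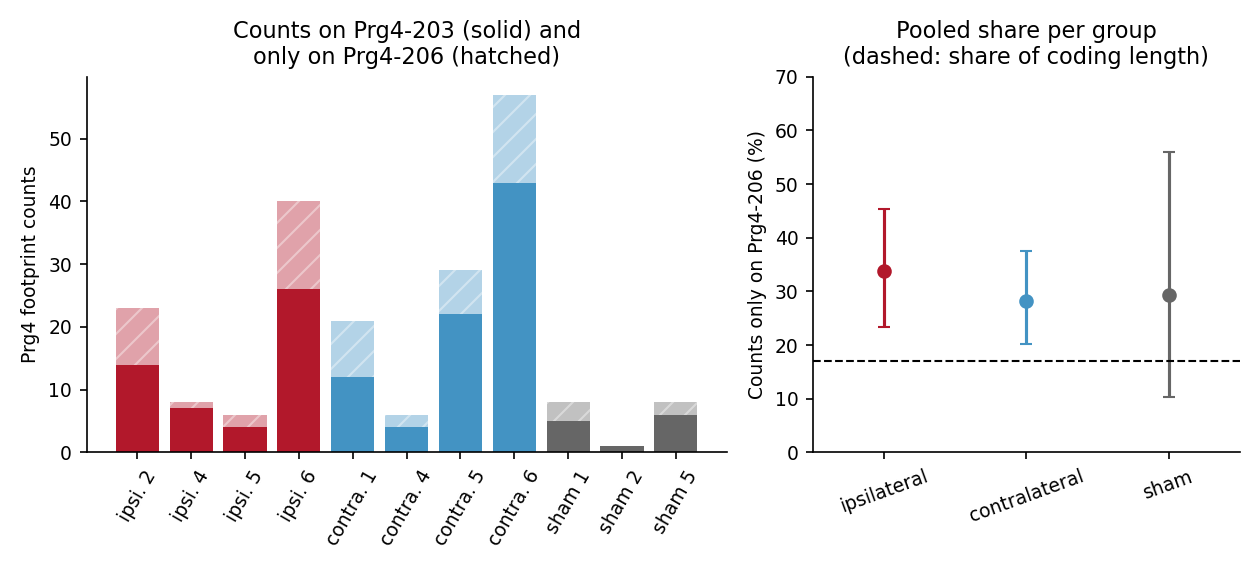
Left, Prg4 counts per library, divided into those also on Prg4-203 (solid) and those only on Prg4-206 (hatched); right, the pooled share only on Prg4-206 per group, in percent with exact 95% intervals. The shares of 33.8% in ipsilateral, 28.3% in contralateral and 29.4% in sham cortex lie above the dashed 17.1% of coding length, though the sham interval includes it.

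Tpr (ENSMUSG00000006005) encodes a protein of the nuclear pore basket and runs on the plus strand from 150392838 to 150449935, so its end meets the end of Prg4. Prg4-206 shares 67 nt with Tpr exons, all of it untranslated sequence of both genes, and the other 3 listed Prg4 transcripts share 204 nt, of which 53 nt code for Tpr. No coding base of Prg4 lies in a Tpr exon, and 51 nt separate the end of Tpr and the coding sequence of Prg4. With Tpr counts spread evenly over its exons, the 67 nt would hold at most 0.52 counts in a library. This spreads counts over untranslated parts too. Such parts changed no count in 99% of the transcript pairs with the same coding exons.

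Tpr did not follow Prg4. Ipsilateral replicates 2, 4, 5 and 6 had 74.7, 88.0, 124 and 86.0 CPM of Tpr, contralateral replicates 1, 4, 5 and 6 had 168, 99.4, 94.2 and 103 CPM, and sham replicates 1, 2 and 5 had 208, 78.5 and 148 CPM. The groups overlapped, and the ipsilateral values were mostly the lower ones. By edgeR's quasi-likelihood test with Benjamini-Hochberg adjustment over 3835 genes, Tpr did not pass between ipsilateral and sham (log2 difference -0.84 ± 0.33 SE, adjusted p = 0.466). It did not pass between contralateral and sham (-0.55 ± 0.27 SE, edgeR adjusted p = 0.876) or between ipsilateral and contralateral cortex (-0.29 ± 0.32 SE, edgeR adjusted p = 0.897). Within days, Tpr was higher in the first-named group in 1 of 7 pairs.

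The genes around lubricin were taken from 6 lists of 110 genes, of which 38 are in the table and 34 were tested. By edgeR's adjusted p, none of the 34 rose or fell in any comparison. The share of all tested genes called was 0.104% between ipsilateral and sham, 0% between contralateral and sham and 0.365% between ipsilateral and contralateral cortex, so 0 of 34 is near the background. At an unadjusted p under 0.05 edgeR had 297, 217 and 292 genes in these comparisons. The median log2 difference of the list genes was 0.17, 0.06 and 0.06, against 0.00, 0.00 and 0.01 over all tested genes. Prg4 lay above every one of them in each comparison, a placing that its choice on the first comparison fixes in part.

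None of the 8 receptors and partners of lubricin is listed, among them Cd44, the hyaluronan receptor that also binds lubricin, and Tlr2 and Tlr4, the Toll-like receptors it is known to bind. Among hyaluronan and lectican genes, 6 of 18 were tested. Ncan, which encodes neurocan, a brain proteoglycan that binds hyaluronan, had 652 CPM in ipsilateral, 654 CPM in contralateral and 576 CPM in sham cortex. Ptprz1, which encodes phosphacan among other forms, had 580, 634 and 555 CPM in the same order of groups. Bcan, which encodes brevican, had 507, 450 and 485 CPM. Tnr, which encodes tenascin-R, had 277 CPM in ipsilateral, 245 CPM in contralateral and 221 CPM in sham cortex. These genes of the matrix around neurons thus had many footprints, and none of the 6 passed the test in a comparison.

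Of the proteins that share a domain with lubricin, 3 of 16 genes were tested. Enpp2, which encodes autotaxin, a secreted enzyme with somatomedin B-like domains, had 733, 767 and 620 CPM in ipsilateral, contralateral and sham cortex. Mmp17, a membrane-bound metalloproteinase with a hemopexin-like domain, had 227, 172 and 173 CPM. Vtn, which encodes vitronectin, with both kinds of domain, had 198 CPM in ipsilateral, 121 CPM in contralateral and 142 CPM in sham cortex. Its log2 difference between ipsilateral and contralateral cortex was 0.66 ± 0.24 (SE, edgeR adjusted p = 0.406).

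Of 22 genes, made up of regulators of Prg4 in joint tissue and genes related to them, 6 were tested. Crebbp, the coactivator that binds phosphorylated CREB, had 183, 212 and 175 CPM in ipsilateral, contralateral and sham cortex, and Foxo3, a forkhead transcription factor, had 110, 122 and 155 CPM. Crtc1, a CREB coactivator of neurons, had 101, 91.2 and 119 CPM, and Atf2, a CREB-related factor, had 98.3, 98.4 and 94.9 CPM. The fitted log2 differences of the 6 between ipsilateral and sham cortex ran from -0.34 to 0.48. Creb1 and the TGF-beta genes are not listed.

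Lubricin is cut by proprotein convertases and carries O-linked sugars begun by GALNT enzymes, and 7 of 20 such genes were tested. Pcsk2, a convertase of the regulated secretory pathway, had 1455, 1515 and 1441 CPM in ipsilateral, contralateral and sham cortex. Pcsk1, a second convertase, had 285 CPM in ipsilateral, 164 CPM in contralateral and 185 CPM in sham cortex, without passing the test between ipsilateral and contralateral (log2 difference 0.77 ± 0.22 SE, edgeR adjusted p = 0.174). Pcsk1n, which encodes the convertase inhibitor proSAAS, had 627, 570 and 591 CPM, and Galnt16 had 177, 217 and 240 CPM.

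Among 26 other secreted matrix genes, 12 were tested and held the list genes nearest to Prg4. Apod, which encodes the lipid carrier apolipoprotein D, had 279 CPM in ipsilateral, 186 CPM in contralateral and 102 CPM in sham cortex, a log2 difference of 1.34 ± 0.32 between ipsilateral and sham (SE, edgeR adjusted p = 0.0900). Sparc, which encodes a collagen-binding protein, had 699, 361 and 324 CPM. Its log2 difference between ipsilateral and contralateral cortex was 1.04 ± 0.26 (SE, edgeR adjusted p = 0.167). The ipsilateral libraries spread widely for Sparc, from 445 to 1278 CPM, against 293 to 413 CPM in contralateral and 283 to 361 CPM in sham libraries. Ccn3, which encodes a matricellular protein, had 327 CPM in ipsilateral, 569 CPM in contralateral and 513 CPM in sham cortex, a log2 difference of -0.72 ± 0.19 between ipsilateral and contralateral cortex (SE, edgeR adjusted p = 0.0867). These 3 were chosen after their values were seen, as the extremes of the list. The members with the highest levels included Sparcl1 at 11668, 11472 and 10149 CPM and Clu, which encodes the secreted chaperone clusterin, at 2466, 2409 and 2257 CPM in ipsilateral, contralateral and sham cortex. Spock2 and Spock1, which encode testican proteoglycans, had 1117, 1151 and 1085 CPM and 880, 936 and 985 CPM in the same order of groups.

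Markers of other cells that cortex can hold were read beside Prg4. Of 15 meningeal and fibroblast markers, Dcn and Igfbp2 are listed and the collagens Col1a1, Col1a2 and Col3a1 are not. Their summed level ran from 99.0 to 293 CPM in ipsilateral, from 101 to 153 CPM in contralateral and from 102 to 251 CPM in sham libraries, ranges that overlap. Dcn, which encodes decorin, averaged 62.4, 48.8 and 69.1 CPM in these groups. Of 14 vascular markers only Slc2a1, the glucose transporter, is listed, at 158, 159 and 152 CPM, and of 7 choroid plexus markers none is.

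Of 9 microglia markers 8 are listed, and their summed level ran from 1559 to 2073 CPM in ipsilateral, from 1219 to 1445 CPM in contralateral and from 911 to 1202 CPM in sham libraries, in the order of Prg4 and without overlap. That order did not hold for each marker. C1qb averaged 99.5 CPM in contralateral and 133 CPM in sham cortex. Csf1r averaged 227 CPM in ipsilateral and 240 CPM in contralateral cortex. How often sums of other genes separate in this way was not computed. The median log2 difference of the 8 markers between ipsilateral and sham was 0.71. In that comparison 0 of 8 passed the edgeR test, near the 0.104% called among all tested genes. The 4 listed globin genes, of blood, summed to between 1041 and 2024 CPM in ipsilateral, between 566 and 989 CPM in contralateral and between 895 and 1324 CPM in sham libraries. Of these, Hba-a1 and Hba-a2 were called higher in ipsilateral than in contralateral cortex, as were 0.339% of all tested genes. How counts divide between these near-identical globin copies is uncertain. The 3 listed striatal markers ran from 161 to 635 CPM in ipsilateral, from 222 to 606 CPM in contralateral and from 508 to 895 CPM in sham libraries. The part of these cell types in the Prg4 differences was not tested.

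The genes whose levels most resembled Prg4 were found by Pearson's r of log2 CPM over the 11 libraries, among 3834 genes, with no test since the libraries fall into groups. They were Atxn2l (r = 0.9), Gucy1a1 (r = 0.884), Hspa5 (r = 0.866), Pvalb (r = 0.843) and Eprs (r = 0.841). The median r over all genes was -0.03. The 5 are the highest of 3834 values over 11 libraries, so their high r follows in part from their choice. Spearman's rho for the 5 was 0.909, 0.882, 0.818, 0.9 and 0.845. After the group means were removed, r was 0.953 for Atxn2l, 0.642 for Gucy1a1, 0.552 for Hspa5, 0.728 for Pvalb and 0.556 for Eprs. Without sham replicate 2 and ipsilateral replicate 6, the libraries farthest from the median of Prg4, r over the other 9 ran from 0.641 for Eprs to 0.84 for Atxn2l. All these values reuse libraries that chose the genes, and are not separate evidence of likeness.

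Atxn2l encodes ataxin-2-like, an RNA-binding protein of stress granules. Ipsilateral replicates 2, 4, 5 and 6 had 164, 205, 124 and 249 CPM of it, contralateral replicates 1, 4, 5 and 6 had 148, 61.2, 121 and 117 CPM, and sham replicates 1, 2 and 5 had 98.2, 78.5 and 111 CPM. As for Prg4, the highest library was ipsilateral replicate 6, and contralateral replicate 4 and ipsilateral replicate 5 were the lowest of their groups. Its range was far narrower, with means of 186 ± 54.0 CPM in ipsilateral (SD, n = 4), 112 ± 36.5 CPM in contralateral (SD, n = 4) and 96.0 ± 16.4 CPM in sham cortex (SD, n = 3).

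Gucy1a1 encodes the alpha subunit of soluble guanylate cyclase, the nitric oxide receptor, and Hspa5 the BiP chaperone of the endoplasmic reticulum. Gucy1a1 averaged 137 CPM in ipsilateral cortex (120 to 147), 122 CPM in contralateral cortex (107 to 141) and 74.0 CPM in sham cortex (62.8 to 84.7). Hspa5 averaged 1932 ± 253 CPM in ipsilateral, 1376 ± 88.5 CPM in contralateral and 1105 ± 130 CPM in sham cortex (SD, n = 4, 4 and 3). That these genes run in the order of Prg4 follows from their choice by r over the same libraries. Pvalb, the parvalbumin of fast-spiking interneurons, averaged 147, 83.2 and 65.7 CPM, and Eprs, the tRNA synthetase for glutamate and proline, averaged 263, 238 and 199 CPM in these groups. The stress-induced Hspa1a had r = 0.68, the immediate early gene Fos r = 0.26 and Tpr r = -0.32 with Prg4. In contralateral cortex Hspa1a had 60.6 to 161 CPM, which overlapped its 70.7 to 141 CPM in sham cortex. Nothing is read from the separation of Prg4 in that comparison, since the low sham counts of Prg4 entered its choice.

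**Figure D5:**
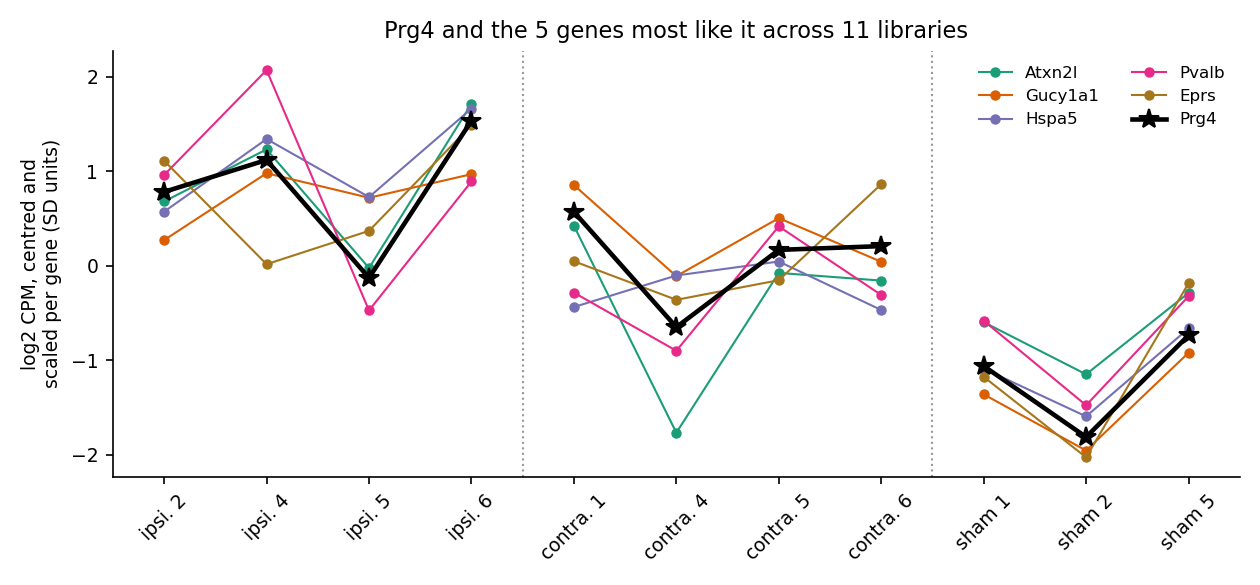
Levels of Prg4 (black) and of the 5 genes most like it in each library, as log2 CPM centred and scaled to SD units per gene, so that sizes of change are not comparable between genes. Lines join libraries of 1 group only to guide the eye; Prg4 and Atxn2l share their highest library, ipsilateral replicate 6.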

How the data were processed

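Whole-number footprint counts per Ensembl transcript were deposited by the authors. Bowtie2, edgeR and mm10 are named, without versions or roles, in the submitters' processing notes; the counting tool, its use of strand and its treatment of reads with several places are not given there or in other sources used. Of 9784 transcripts, 9736 matched GENCODE vM21 by identifier, and the other 48 (0.306% of counts) were left out. A gene was its transcript with the highest summed count. edgeR 4.0.16 in R 4.3.3 was used with filterByExpr (minimum count 10, 3835 of 4338 genes kept), TMM factors and 1 robust quasi-likelihood fit of the 11 libraries over group, with Benjamini-Hochberg adjustment at 0.05; it was tested on simulated data. The common dispersion was 0.0291. Log2 CPM used a prior count of 2.

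Prg4 and the lists were chosen with earlier results of these data known. Named genes were Prg4, Tpr, the 5 with the highest r and, per list, members passing a test or up to 4 with the highest CPM; Apod, Sparc, Ccn3 and the first genes by rank, with Hspa1a and Fos, were added after their values were seen. Per the submitters' design text, a replicate number is a day of surgery, so numbers pair libraries. Deviations from group means correlated at -0.139 to 0.224 (median 0.131) in the 7 same-number pairs and at -0.255 to 0.259 (median -0.03) in the 33 others. Alternatives were DESeq2 1.42.0, limma 3.58.1 (voom), RLE factors, no filter, summed transcripts, the replicate block, 2 groups only, no shallowest libraries, each library left out and Prg4-202 as the transcript, the last chosen after seeing the data.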

Additional observations from a re-analysis of the deposited data

Results flagged for a closer look

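Tpr reached 168 CPM in contralateral replicate 1, against 94.2 to 103 CPM in the other 3 contralateral libraries. The gap to its nearest neighbour was a larger part of the group's range than Dixon's 95% limit for 4 samples, which chance passes in about 1 of 20 groups. Prg4 was also highest of its group in that library, at 141 CPM. No ipsilateral or contralateral Prg4 library was flagged by this measure, which was not applied to the 3 sham libraries.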

How the results depend on the processing

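The Prg4 differences kept their direction in every alternative run. Over the 9 alternatives other than leaving out single libraries, log2 values ran from 2.44 to 2.77 between ipsilateral and sham, from 1.44 to 1.58 between contralateral and sham and from 0.94 to 1.26 between ipsilateral and contralateral cortex. With each library left out in turn they ran from 2.13 to 2.89, from 1.42 to 1.79 and from 0.59 to 1.34. With the replicate number as a block they were 2.77, 1.51 and 1.26. Tpr passed in no setting that gave an adjusted p, and DESeq2 gave none between ipsilateral and sham (log2 -0.77); left-out libraries gave -1.0 to -0.48, -0.69 to -0.17 and -0.46 to -0.14 in these comparisons, and the block gave -0.35, -0.38 and, reversed between ipsilateral and contralateral cortex, 0.03; the cause was not tested.

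Counts of genes called were less stable. Between ipsilateral and sham edgeR called 4 and DESeq2 10, and left-out libraries gave 0 (without sham replicate 1) to 22 (without ipsilateral replicate 5). Between contralateral and sham edgeR called 0, DESeq2 2 and limma-voom 0, and left-out libraries gave 0 to 3 (without sham replicate 5). Between ipsilateral and contralateral cortex edgeR called 14, against 7 with summed transcripts and 7 without the 2 shallowest libraries, and left-out libraries gave 4 (without contralateral replicate 6) to 26 (without ipsilateral replicate 5). The block gave 3, 0 and 11 calls. Of the 5 genes most like Prg4, 3 stayed in the first 5 by Spearman's rho and 4 with a prior count of 0.5. Prg4 counts were fewest in sham cortex, with 17 counts in 3 libraries. In sham replicate 2 a count of 0 would still allow 47.1 CPM, and in ipsilateral replicate 4, the shallowest library, 88.0 CPM.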
